A study of Vitis vinifera with 3 samples.

Results

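Berries of the grapevine cultivar Fujiminori were compared at véraison, the onset of ripening when the fruit softens and colours, and at the first growth stage, for regions of differing cytosine methylation in the CG, CHG and CHH contexts (H is A, C or T). Véraison berries were sampled 65 days after flowering and first growth berries 40 days after flowering, and each stage had 1 library of DNA from the fruits, sequenced after bisulfite treatment. The comparison took every row of the 3 tables that set these libraries against each other, on the 19 numbered chromosomes. These were 186638 regions, of 377997 in the 9 tables of the series: 4479 in CG, 7994 in CHG and 174165 in CHH. The rule left out 18 mitochondrial and 4 chloroplast rows. Mature berries, at 90 days, had the third library of the series. No treatment or genotype differed between the stages, and the labels do not say how many vines or berries gave the DNA.

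In plants, cytosines carry methyl groups in all of these contexts. From work in Arabidopsis, CG methylation is copied after DNA replication by a maintenance methyltransferase, and CHG methylation by a chromomethylase that is guided by histone marks. CHH sites have no partner on the opposite strand, and their methylation is set again by small-RNA-directed methylation or by another chromomethylase. Methylation of transposons and repeats usually involves all contexts, whereas methylation within the body of expressed genes is mostly in CG. DNA glycosylases can remove methylated cytosines, and in tomato such an enzyme is active in ripening fruit.

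The direction of the listed differences depended on the context. Differences are given as the level at véraison minus the level at first growth, in percentage points. Of the listed regions, 99.6% in CHH, 40.5% in CHG and 18.8% in CG were higher at véraison, and 0.361%, 59.5% and 81.2% were lower. A single library stood for each stage, so stages were not tested against each other, and because the regions were listed for differing, these shares describe the lists and not the genome. The intervals on shares below are exact Clopper-Pearson 95% intervals over regions, covering counting error only. The depth behind each level is unknown.

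The lists had a floor. In all 9 tables of the series the smaller of the levels of a region never exceeded 50%, and 0 regions had a ratio between the larger and the smaller level that lay below 2 by more than the rounding of the levels allows. Of the rows in the 3 tables, 732 had a ratio under 2 as printed, each within that rounding. Regions with a difference of less than 2-fold, such as a change from a high to a moderate level, are therefore not in these lists. Regions that began above 50% could be listed only as lower, and those that began at 0% only as higher. The relation between starting level and direction is therefore partly set by the listing.

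**Figure D1:**
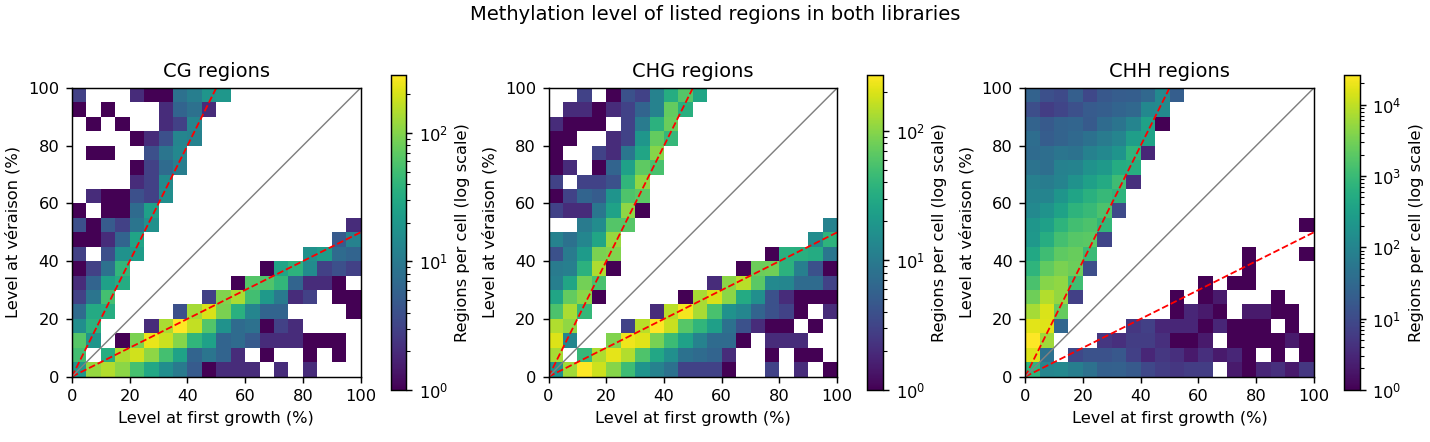
Methylation level at first growth (x axis, percent) and at véraison (y axis, percent) of all regions on numbered chromosomes, in cells of 5 percentage points coloured by the number of regions on a log scale. The dashed lines mark a 2-fold difference in either direction and the grey line equal levels. CG and CHG regions lie mostly along the dashed lines, and CHH regions lie mostly in the lower left corner above the upper line.

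CG and CHG regions lay close to this floor. Among regions with a level above 0% in both libraries, the ratio of the larger to the smaller level had a median of 2.24 in higher and 2.31 in lower CG regions. It was 2.27 in higher and 2.29 in lower CHG regions. Between 2-fold and 2.5-fold lay 59.6% of CG and 59.8% of CHG regions. CHH regions lay further from it, with a median ratio of 3.4 in higher regions, where 27.2% were at least 5-fold. The 629 lower CHH regions had the largest ratios, with a median of 6.08 in the 412 that kept a level above 0%. A further 217 of them, 34.5%, were listed at 0% at véraison, compared with 2.86% of lower CG and 4.03% of lower CHG regions.

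Few regions crossed from nearly unmethylated to mostly methylated or back. From 10% or less at first growth to 50% or more at véraison went 16 CG, 24 CHG and 1730 CHH regions, 0.997% of the higher CHH regions. From 50% or more to 10% or less went 24 CG, 35 CHG and 55 CHH regions. At the other end of the scale, 37545 of the higher CHH regions (21.6%) differed by less than 10 percentage points.

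By starting level, CHH regions were mostly higher in each class below 50%. The lowest class includes 9840 CHH regions at 0% at first growth, which could be listed only as higher. Regions that began below 10% made up 72.2% of the CHH list and had a median difference of 12 percentage points when higher, from a median of 4% to 17%. Those that began at 10 to under 25% had medians of 14% and 39%, and those that began at 25 to under 50% had 31% and 67%. The share that was higher was 99.9% (interval 99.9 to 99.9%) in the lowest class and 98.4% (98.1 to 98.6%) in the class from 25 to under 50%. Of the 83 CHH regions that began at 50 to under 75%, 20 were higher, with medians of 50% and 100%.

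CG regions went the other way once they began at 10% or more. Of 405 CG regions that began below 10%, 68.1% (63.4 to 72.7%) were higher at véraison, by a median of 10.5 percentage points. They include 70 that began at 0% and could be listed only as higher. The share was 28.9% (26.2 to 31.8%) of those that began at 10 to under 25%, and 11.2% (9.91 to 12.7%) of those that began at 25 to under 50%, the class that held 46.3% of the CG list. Lower regions in that class had medians of 36% at first growth and 15% at véraison. The 164 CG regions that began at 75% or more were all lower, as the floor requires, with medians of 83% and 39%.

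CHG regions lay between the other contexts at each starting level below 50%. The lowest class includes 200 CHG regions at 0% at first growth, again listed only as higher. The share that was higher was 88.3% (86.3 to 90.2%) of those that began below 10%, 49.1% (46.9 to 51.3%) of those at 10 to under 25% and 37.8% (36.1 to 39.5%) of those at 25 to under 50%. In that last class, 1211 higher CHG regions had median levels of 34 and 75% in the order of the stages, and 1994 lower ones 36 and 15%. CHG regions therefore went in both directions from similar starting levels, whereas in the same class 1841 of 2074 CG regions were lower. The floor requires large differences from such levels. CG regions of this class had like medians, 35 and 79% when higher and 36 and 15% when lower.

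Longer CG and CHG regions were more often lower at véraison, and longer CHH regions were higher by more. CG regions were higher in 38.3% of cases (32.1 to 44.8%) at 50 to under 100 bp, 21.2% (19.2 to 23.2%) at 200 to under 400 bp and 8.05% (6.85 to 9.38%) at 400 bp or more, and in 9.61% of the CG regions no shorter than their table's median. The corresponding shares of CHG regions were 43.3% (40.8 to 45.8%), 37.0% (35.2 to 38.9%) and 31.3% (27.6 to 35.2%). Higher CG regions had a median length of 234 bp (quartiles 147 and 357) and lower ones 384 bp (254 and 546). Level and length moved together. Higher CG regions of 50 to under 100 bp had median levels of 26% and 60.5% in the order of the stages, and those of 400 bp or more had 11% and 27%.

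In CHH, the higher regions under 50 bp had a median difference of 12 percentage points, those of 100 to under 200 bp had 22 and the 291 regions of 400 bp or more had 32. The longest class began at a median of 15% and was at 48% at véraison. Of the 6081 CHH regions of 200 to under 400 bp, 1 was lower, and of the 291 longer ones 0. Among CHH regions of 100 to under 200 bp, 39 of 29669 were lower. The number of cytosines and reads in a region is not in the tables, and short regions hold fewer sites, so the part that coverage has in these length relations was not tested.

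**Figure D2:**
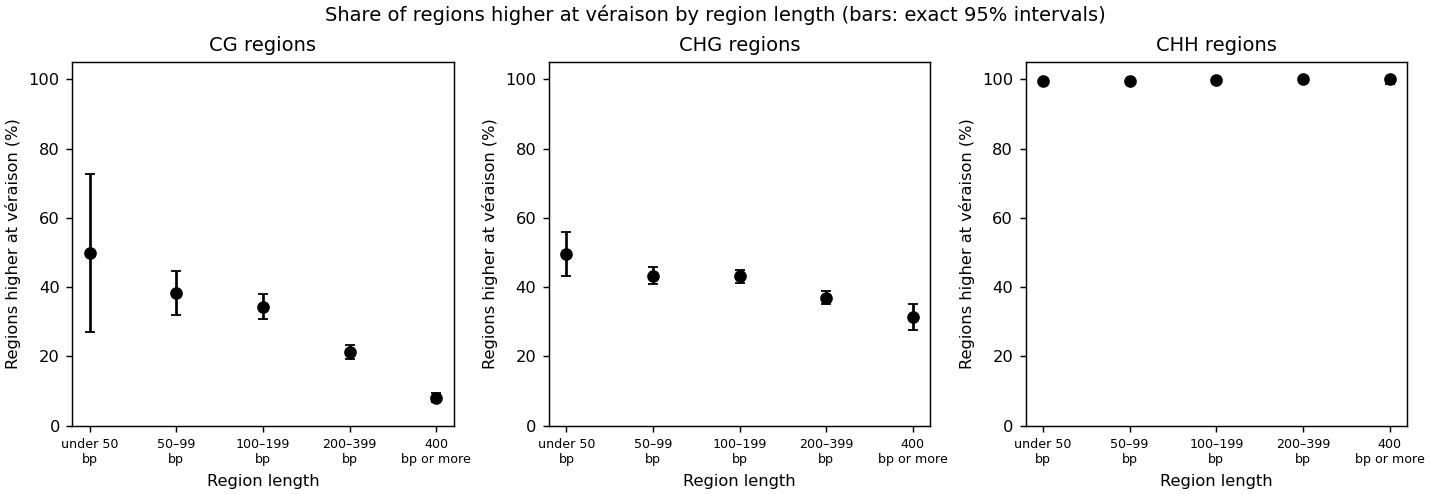
Share of regions that were higher at véraison (y axis, percent) by region length class (x axis), for each context. Points are shares and bars their exact 95% intervals over regions, and in CG they run from 38.3% at 50 to under 100 bp to 8.05% at 400 bp or more while CHH stays above 99%.

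Rows of a table were not always distinct places. Overlapping neighbours made up 6.03% of neighbouring pairs in CG, 8.08% in CHG and 13.8% in CHH. Joining overlapping rows of the same direction left 4214 CG, 7354 CHG and 150095 CHH places, with up to 9 CHH rows in 1 place. Overlapping rows gave nearly the same result as each other: they had the same direction in 265 of 269 CG pairs, 640 of 644 CHG pairs and 24070 of 24078 CHH pairs. Their levels differed by a median of 4 percentage points in CG, 3 in CHG and 3 in CHH at first growth. In CHG, the starts of 117 of the 644 overlapping pairs were exactly 2 bp apart, compared with 21 at 3 bp and 3 at 1 bp, and all 117 had the same direction. The cytosines of a CHG site on opposite strands are also 2 bp apart. The tables give no strand for regions, and whether the strands were called separately was not tested.

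Along the chromosomes, lower CG regions were densest towards the ends and higher CHH regions towards the middle. Each chromosome was taken to reach from its first base to the farthest region end in any table and was cut into 10 equal parts. The outer 2 parts at each end held 11.5 lower CG regions per Mb and the middle 2 parts 4.66. The outer density was the greater on 17 of 19 chromosomes. Higher CG regions showed a smaller contrast, 2.15 against 1.58 per Mb, with the outer density greater on 14 of 19 chromosomes. Lower CHG regions had 12.2 and 9.21 per Mb, with 16 of 19 chromosomes in that order, whereas higher CHG regions had 7.50 and 7.76 per Mb, with 8 of 19 chromosomes denser outside. Higher CHH regions had 374 per Mb in the outer parts and 439 per Mb in the middle, and were sparser outside on 14 of 19 chromosomes, denser on 4 and equal on chromosome 6.

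The levels changed along the chromosomes as well as the numbers. Higher CHH regions were at medians of 6% at first growth and 23% at véraison in the outer parts, and 5% and 18% in the middle. In CHH the middle therefore held more regions with smaller differences. Higher CHG regions had the opposite pattern, with medians of 16% and 39% in the outer parts and 25% and 58% in the middle. Higher CG regions were at 13% and 31% in the outer parts and 21% and 49% in the middle. Lower CG regions had nearly the same levels in both places, 36% and 15% in the outer parts and 37% and 15% in the middle. The share of regions in gene models moved with position too, from 31.8 to 22.4% in CG, 48.3 to 31.6% in CHG and 12.2 to 7.13% in CHH between the outer parts and the middle. Its part in these differences was not tested.

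**Figure D3:**
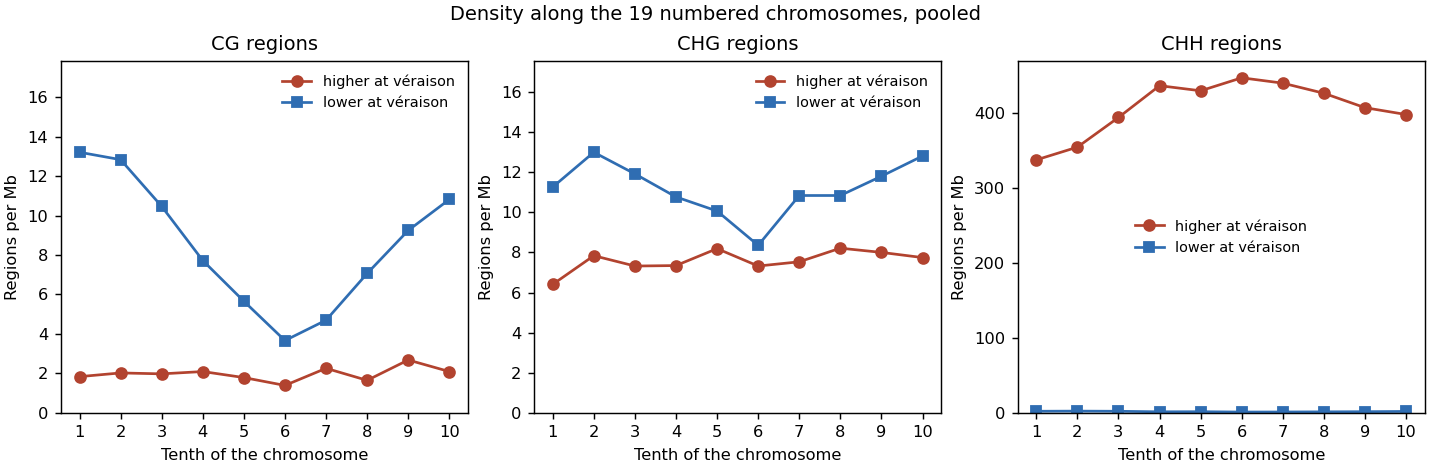
Regions per Mb (y axis, from 0) in each of 10 equal parts of the chromosomes (x axis), pooled over the 19 numbered chromosomes, with higher and lower regions drawn apart. Lower CG regions form a trough in the middle, where their density is 4.66 per Mb against 11.5 per Mb in the outer parts, and higher CHH regions form a shallow rise.

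Between chromosomes, the share that was higher spanned a wider range in CHG than in CG or CHH. The share of CHG regions that were higher was 28.4% on chromosome 17 (interval 23.6 to 33.5%) and 48.1% on chromosome 15 (43.4 to 52.8%). Chromosome 17 also had the lowest density of higher CHG regions (5.55 per Mb), the highest density of lower ones (14.0 per Mb) and the highest density of higher CHH regions (519 per Mb). In CG the shares ran from 13.4% (8.95 to 19%) on chromosome 17 to 24.4% (19.3 to 30.2%) on chromosome 13. In CHH they ran from 99.5 to 99.7%.

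In windows of 1 Mb, a median window held 7 lower and 2 higher CG regions, 10 lower and 7 higher CHG regions, and 385.5 higher CHH regions. No window lacked higher CHH regions, and 30.1% of the 438 windows had 0 lower ones. The window richest in CG regions lay on chromosome 15, from 18 to 19 Mb, with 51 regions, of which 47 were lower. The next richest had 37. The same window held 8 lower CHH regions, more than any other window, and 462 higher ones. The window richest in CHG regions lay on chromosome 19, from 4 to 5 Mb, with 45 lower and 15 higher regions. Its 315 higher CHH regions were below the lower quartile of all windows (319.25). The window richest in CHH regions lay on chromosome 18, from 22 to 23 Mb, with 799 higher regions and 1 lower one.

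Over these 438 windows, the numbers of lower CG and lower CHH regions had a Spearman correlation of 0.40 and a Pearson correlation of 0.39. Lower CG and lower CHG regions had 0.31 and 0.27, and higher CG and higher CHG regions had 0.21 and 0.25. Lower CG and higher CHH regions had -0.05 and -0.01. The windows share both libraries, and their mappable sequence, gene content and cytosine content, so these values are a description.

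Gene models held 28.8% of CG regions, 42.7% of CHG regions and 10.0% of CHH regions. The tables name 1122 models with CG regions, 2422 with CHG regions and 5066 with CHH regions, 7006 in all. Their identifiers were looked up in the RefSeq gene list of assembly ASM3070453v1, where 0 matched, so the models carry no gene names here. Differences in percentage points were smaller inside models than outside them, but levels at first growth were lower inside as well. Under the 2-fold floor, the smallest difference that can be listed rises with the starting level. Whether regions in models changed less from like starting levels was not tested. Higher CG regions inside models were at medians of 11% (first growth) and 27.5% (véraison), and at 18% and 45% outside. Higher CHG regions had 11% and 31% inside, and 24% and 56% outside. Lower CHG regions had 34% and 14% inside, and 43% and 18% outside. In CHH the contrast was slight, with 5% and 18% inside and 6% and 21% outside.

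CG regions inside models lay towards their ends, and higher CHH regions away from them. Models were cut into 5 equal parts along their strand. The first part held 32.5% and the last 22.3% of the 274 higher CG regions whose midpoint lay inside a model, and the central part 12.4%. For the 921 lower CG regions these shares were 24.2, 25.7 and 17.8%. For the 17235 higher CHH regions they were 17.2, 16.4 and 22.7%. The 114 lower CHH regions had no such rise: from the first part to the last they held 21.9, 25.4, 17.5, 20.2 and 14.9%. The 1230 higher CHG regions held 18.3, 20.6, 19.4, 22.7 and 19% in that order, with most in the part after the central one. The 2142 lower CHG regions held 20.2, 23.2, 20.4, 20 and 16.2%, with most in the part after the first and fewest in the last. Exons and introns are not marked in the tables.

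**Figure D4:**
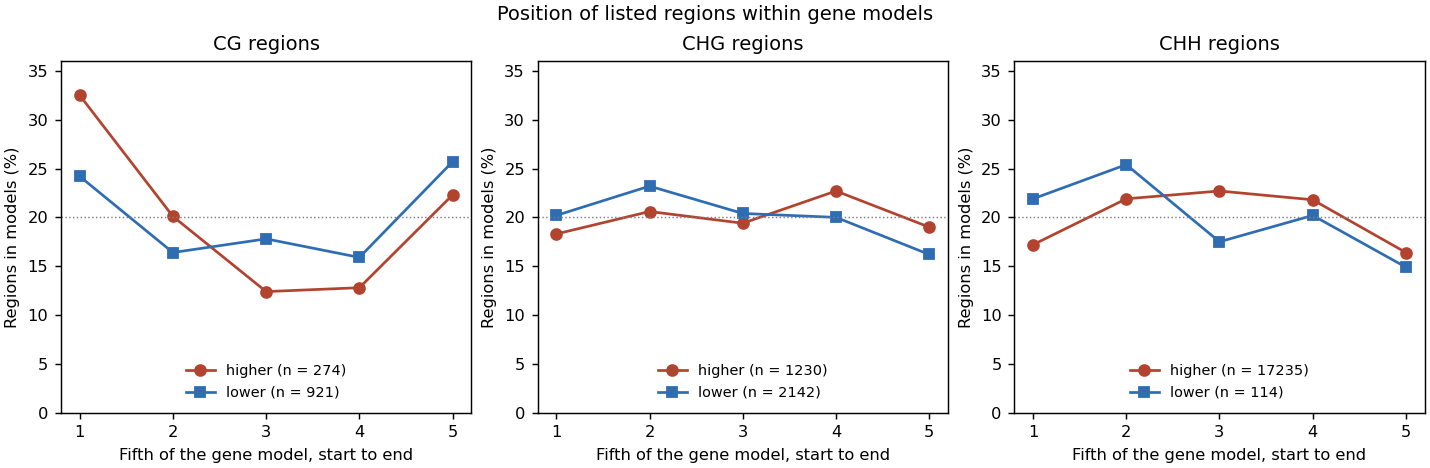
Share of the regions with a midpoint inside a gene model (y axis, percent) in each of 5 equal parts of the model from start to end (x axis), drawn apart for higher and lower regions, with the even share of 20% as a dotted line. Higher CG regions are most frequent in the first part (32.5%) and higher CHH regions in the central part (22.7%).

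Beyond the models, the flanks also differed with direction. In the 3 kb on each side of the 9490 models named in any of the 9 tables, there were 17379 upstream and 12016 downstream higher CHH regions, a ratio of 1.45. The few lower CHH regions were 84 upstream and 44 downstream, a ratio of 1.91. Lower CG regions were 544 and 447 (1.22), and higher CG regions 76 and 92 (0.826). Higher CHG regions had a ratio of 0.903 and lower ones 0.965. Close to models the contexts differed, on both sides. In the nearest 500 bp upstream there were 28.5 lower CG regions per 1000 kb, against 19.1 over the whole 3 kb, and downstream 24.9 against 15.7. Higher CHH regions were sparser there, with 333 per 1000 kb against 610 upstream and 300 against 422 downstream. Models are named because a region overlaps them, and a region that crosses a model's edge can have its midpoint in the flank, so densities near the edge are raised for the longer CG regions.

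Most gene models were named in 1 context. Of the 7006 models, 5527 (78.9%) were named in 1 context, 1354 in 2 and 125 (1.78%) in all 3. CG and CHG shared 267 models, 23.8% of the CG models and 11% of the CHG models. The CG and CHH lists had 341 models in common, 30.4% of the CG models and 6.73% of the CHH models. CHG and CHH shared 1121 models, 46.3% of the CHG models and 22.1% of the CHH models. Models without a listed region are not counted here. Whether these overlaps are larger or smaller than the sizes of the lists alone would give was therefore not tested. Models in 2 contexts were longer, with a median of 12712 bp against 5817 bp for those in 1, and a longer model has more room for regions. The median length was 4003.5 bp for CG models and 9619 bp for CHG models.

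Within a model, regions of 1 context did not always go the same way. Of the 654 models with 2 or more CHG regions, 402 (61.5%) had all of them in 1 direction. Of the 136 models with 2 or more CG regions it was 112 (82.4%), and of the 3000 with 2 or more CHH regions 2948 (98.3%). For 2 regions, the shares of higher and lower regions alone give 51.8% in CHG, 69.5% in CG and 99.3% in CHH. For more regions they give less. Overlapping rows, which nearly always had the same direction, counted as separate regions here, and their part in these shares was not tested. The model with the most CHH regions had 52.

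In the 125 models named in all 3 contexts, the commonest combination was lower CG, lower CHG and higher CHH, in 68 models (54.4%). The shares of higher and lower regions in the 3 lists alone give 48.2%. A further 22 models were higher in all contexts, and 2 were lower in all. Over the 267 models with CG and CHG regions, 154 (57.7%) were lower in both contexts, where the shares alone give 48.4%, and 43 (16.1%) were higher in both, where they give 7.6%. Another 27 were lower in CG and higher in CHG, and 14 the reverse. These shares alone are those of all listed regions, inside models or not, whereas the counts are of models, so they are a rough guide. Some models hold CG and CHG regions that overlap, and the part of that overlap in these counts was not tested.

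Among the 154 models that were lower in both CG and CHG, VIT_09s0002g03300.t01 had the most such regions, 3 CG and 4 CHG. It lies on chromosome 9, from 3004166 to 3012627 on the plus strand. Its CG levels at first growth and véraison were 45 and 22%, 48 and 24%, and 39 and 17%, and the first of these regions overlaps the second. Its CHG levels were 37 and 18%, 51 and 5%, 29 and 4%, and 68 and 34%, and the second of these overlaps the third. The contexts overlap too. The CHG region at 37 and 18% overlaps the first and second CG regions. Those at 51 and 5% and at 29 and 4% lie within the third CG region. The 7 regions are therefore fewer separate stretches. All 7 lay around the start of the model: the first began 337 bp before it and the last 1149 bp after it. The single CHH region, further in, was at 5 and 12%. VIT_12s0134g00340.t01, on chromosome 12 from 7919533 to 7931527 on the minus strand, had 1 CG region at 43 and 15%. Its 4 CHG regions were at 69 and 24%, 66 and 24%, 53 and 21%, and 12 and 0%. The first 3 of these overlap in a chain, so they are 1 stretch listed in several rows. The last of them overlaps the CG region. Its 2 CHH regions were at 1 and 16%, and 1 and 24%.

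Of the 43 models that were higher in both CG and CHG, VIT_15s0048g01650.t01 had the most regions. It is 61356 bp long, on chromosome 15 from 15795757 to 15857112 on the plus strand. Its 2 CG regions overlap each other near the start and were at 17 and 38%, and 27 and 58%. Its 3 CHG regions were at 1 and 9%, 17 and 38%, and 0 and 10%, and its 4 CHH regions were all higher, by 4 to 9 percentage points. VIT_12s0059g00910.t01, on chromosome 12 from 5704818 to 5720663 on the plus strand, had a CG region at 32 and 64%. It overlaps a CHG region at 25 and 57%. Its other 2 CHG regions overlap each other, at 20 and 41%, and 20 and 40%, and its 6 CHH regions were all higher.

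Where CG and CHG regions overlapped, they nearly always had the same direction, and CHH overlapped them unequally. Regions of different contexts were paired when they shared at least 1 bp, and all contexts come from the same libraries. Of 741 CG and CHG pairs, 733 (98.9%) had the same direction. In the 564 pairs that were lower in both, CG went from a median of 39.5 to 17.5% and CHG from 36 to 13%. In the 169 pairs that were higher in both, CG went from 16 to 36% and CHG from 12 to 39%.

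Higher CHH regions overlapped lower CG regions more than higher ones, but higher CHG regions more than lower ones. They overlapped 14.1% (13.0 to 15.2%) of lower and 2.97% (1.93 to 4.36%) of higher CG regions. For CHG the order was reversed, with 9.30% (8.33 to 10.4%) of higher and 3.19% (2.71 to 3.73%) of lower regions. Per length of the CG or CHG regions, the overlapping pairs came to 44.9 per 100 kb of lower and 13.4 per 100 kb of higher CG regions. For CHG they came to 66.9 per 100 kb of higher and 17.5 per 100 kb of lower regions. For scale, the chromosomes held a median of 390 higher CHH regions per 1000 kb, a longer unit than the 100 kb of the pairs. Pairs per length also depend on the lengths of the regions, and the number that even placement would give was not computed. Whether CHH regions were enriched or depleted at any of these classes was therefore not tested. The higher CHH regions over lower CG regions had median levels of 9 and 33% in the order of the stages, and those over higher CHG regions had 5 and 23%.

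Lower CHH regions overlapped lower CG and CHG regions more than higher ones. They overlapped 53 lower and 1 higher CG region, and 40 lower and 1 higher CHG region. In pairs per 100 kb this was 3.96 for lower and 0.448 for higher CG regions, and 4.74 and 0.167 for CHG. Lower CHH regions were few, with a median of 1.46 per 1000 kb over the chromosomes, again a longer unit than that of the pairs. The single overlaps with higher CG and CHG regions therefore do not show avoidance. Where CG, CHG and CHH regions all overlapped each other, 28 combinations were lower in CG and CHG and higher in CHH. Another 8, from 4 CG regions, were higher in all contexts, and 3 were lower in CG and higher in CHG and CHH. A further 19 combinations, from 14 CG regions, were lower in all contexts. In those, the medians went from 32 to 13% in CG, from 32 to 10% in CHG and from 13 to 2% in CHH.

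Between neighbouring regions that did not overlap, CHG direction was shared only over short distances. Of neighbouring CHG regions less than 100 bp apart, 73.6% (64.4 to 81.6%) had the same direction. The share was 60.0% (55.3 to 64.6%) from 100 bp to under 1 kb, 54.4% (51.6 to 57.2%) from 1 kb to under 10 kb and 51.6% (50.2 to 52.9%) beyond, where the shares of higher and lower regions alone give 51.8%. Only 21 pairs of neighbouring CG regions were less than 100 bp apart, and 61.9% of them (38.4 to 81.9%) had the same direction. From 100 bp to under 1 kb the CG share was 78.4% (71.4 to 84.3%). Neighbouring CG regions from 1 kb to under 10 kb apart shared direction in 80.8% of cases (77.3 to 83.9%), and those 10 kb or more apart in 71.2% (69.6 to 72.7%), where the shares alone give 69.5%.

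**Figure D5:**
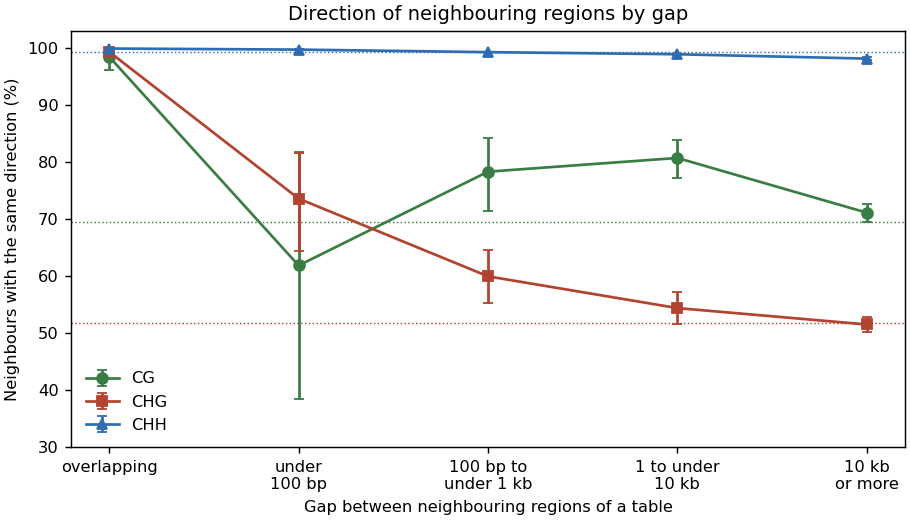
Share of neighbouring regions of a table with the same direction (y axis, percent, from 30) by the gap between them (x axis), with exact 95% intervals as bars. The dotted lines mark what the shares of higher and lower regions alone give, and in CHG the share is 73.6% under 100 bp and 51.6% at 10 kb or more.

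For each context, direction and place, the region with the smallest p in the authors' deposited table is given as an example, among regions no shorter than their table's median. These are extreme rows, not typical ones. In CG, the lower region outside gene models with the smallest p lay on chromosome 14, from 29539737 to 29540242, with 87% at first growth and 39% at véraison (p = 1.19e-45 in the authors' deposited table). The lower region inside a model was on chromosome 19, from 474148 to 474813, and began 3254 bp into a model of 4640 bp, with 77 and 19%. The higher CG regions had larger p-values. On chromosome 2, from 11720062 to 11720708 outside models, the levels were 27 and 54% (p = 4.15e-19 in the authors' deposited table), and on chromosome 17, from 10969642 to 10970017 inside a model, 30 and 62%.

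In CHG, the higher region outside models on chromosome 13, from 16241207 to 16241747, was at 5 and 56%, and the lower one on chromosome 9, from 10450213 to 10450675, at 30 and 5% (p = 1.57e-27 in the authors' deposited table). Inside models, a region on chromosome 5, from 2392497 to 2392693, was at 18 and 40%, and one on chromosome 1, from 6144724 to 6145218, at 43 and 12%.

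In CHH, p was listed as 0 in the authors' deposited table for several higher regions. Of these, the one with the largest difference inside a model lay on chromosome 10, from 18100354 to 18100608, at 9 and 21%, and the one outside lay on chromosome 16, from 2523173 to 2524141, at 13 and 41%. The lower CHH region with the smallest p outside models, on chromosome 6 from 6529069 to 6529211, had levels of 100% and 2% (p = 9.88e-43 in the authors' deposited table). Inside a model, on chromosome 1 from 21740435 to 21740582, a lower CHH region began 59 bp into a model of 783 bp and was at 30 and 0%.

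For a few regions the tables also gave the level in mature berries, where the same start and end were listed against first growth. Places with like levels in the later stages are more likely to be listed so, and both values are set against the same first growth library. In 570 lower CG regions the medians in the order of the stages were 37, 12 and 12%, and in 62 higher CG regions 17, 44 and 45%. In 94 higher CHG regions they were 25, 58.5 and 60.5%, and in 168 lower CHG regions 41, 13.5 and 13%. In 13 lower CHH regions, of 629, they were 20, 0 and 1%.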

How the data were processed

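Whole-genome bisulfite sequencing measured 1 library per stage. The submitters' processing notes name BSMAP 2.73, an aligner for bisulfite reads. The build, the annotation, the caller of regions and its filters are not stated in what was used here. The deposited values are, per the file headers, average methylation fractions of a region, which the authors rounded to 2 decimals; they were multiplied to percent. The p-values in the deposited tables are called a chi-square statistic in the file headers, but all lie below 0.01 and were read as p-values without stated adjustment. Replicates, read counts and coverage are not in the tables, so no interval was given for a level and no test was run between stages.

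Rows on the 19 numbered chromosomes were kept. Medians, quartiles, shares with exact 95% intervals, overlaps (at least 1 bp) and densities were computed with Python 3.11.15, pandas 2.3.3 and scipy 1.17.1, and the overlap and joining steps were tested on simulated regions. Classes of level and length, and the rule for named models and regions, came with the plan. The rule took, per context and direction, the region with the smallest p of at least the median length inside and outside models. It also took the 2 models with the most one-way CG plus CHG regions each way, and the richest 1 Mb window per context. The comparison, its classes and its lists were chosen with earlier results of these data known. Zones of the chromosomes, neighbour gaps and parts of models were chosen after the tables were seen. Coordinates are those of the authors' tables, and region sequences were not used here. Alternatives restricted the rows by size of difference, p, length, sequence or extreme levels, set the overlap at 0.5 of the shorter region's length, or joined overlapping rows.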

Additional observations from a re-analysis of the deposited data

How the results depend on the processing

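No share of higher regions crossed 50% under any alternative, and of 43 alternative values 22 stayed within the exact interval of the main value. When the smaller differences were left out (below the median of the table), the share higher at véraison was 44.2% in CHG and 99.6% in CHH, and the share in gene models was 19.8% in CG, 31.2% in CHG and 8.64% in CHH. When the shorter regions were left out (below the median length), 9.61% of CG, 37.0% of CHG and 99.8% of CHH regions were higher, 26.1% of CG, 45.5% of CHG and 9.34% of CHH regions lay in gene models, and 99.6% of CG and CHG pairs had the same direction. With a p threshold 10 times stricter, 16.3% of CG, 38.6% of CHG and 99.7% of CHH regions were higher. Without levels of 0 or 100%, 17.1% of CG and 99.8% of CHH regions were higher and 9.81% of CHH regions lay in gene models. Joining overlapping rows, an alternative chosen after seeing the data, gave 99.6% higher and 10.2% in gene models for CHH. An overlap of 0.5 of the shorter region gave 99.6% of CG and CHG pairs with the same direction. The cause of these shifts was not tested.

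No paired analysis was possible because each stage has 1 library and no replicates. No replicate was left out, for the same reason. The unknown coverage limits every level: 5.65% of CHH regions were listed at 0% at first growth, and how many reads stand behind such a level is not in the tables.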

Other observations

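The rows that the rule left out showed small differences. The 7 mitochondrial CG rows had median levels of 3% in the earlier library and 2% in the later one, and differed by at most 2 percentage points. The 6 mitochondrial CHG rows had the same medians, with 1 row that differed by 15 percentage points. In CHH, the 5 mitochondrial and 4 chloroplast rows were all higher at véraison, from a median of 1% to 2% and 2.5%. The tables list regions for differing, so these values are not averages of organelle DNA.

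Where a region had identical coordinates in both tables that use the first growth library, the first growth level was the same in both tables, in all 2619 higher and 13 lower CHH regions, 632 CG regions and 262 CHG regions.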
